A study of Mus musculus with 2 samples.

Results

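Genes of the interferon pathway were described in cells of healing mouse skull bone: the transcription factor genes Irf1, Irf3, Irf5, Irf7, Irf9 and Stat2, and the receptor chain genes Ifnar1, Ifnar2 and Ifngr1. These 9 were chosen by name, as interferon factors and receptors, out of the 32285 genes listed in the count matrices, or of the 24329 with a unique molecular identifier (UMI, the tag that marks a captured RNA molecule) in at least 3 of the cells kept here. The choice was made with earlier results of these data known. The study asked how an agonist of the nerve growth factor receptor TrkA changes the cells of a bone injury. C57BL/6 mice, stated to be male and 2 months old, had a circular hole of 1.8 mm made in the frontal bone, and the tissue around it was taken 7 days later for droplet single-cell RNA sequencing. GA mice received gambogic amide, a small-molecule TrkA agonist, at 1.2 mg/kg by the labels (the methods state 2 mg/kg) in 10% DMSO, and control mice received 10% DMSO, by intraperitoneal injection from 24 h before injury and then for 1 week. The labels name no altered allele in either group.

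Cells of 5 mice were pooled into each library and there was 1 library per condition. The spread between mice can therefore not be seen, no difference between GA and control has a replicate check, and no p-value is given. Each level below is a gene's UMIs per 1000000 UMIs of a cell class in a library (CPM), each ratio is that of the GA to the control level, and each 95% interval is an exact interval that covers counting error only. After filtering, 8376 GA cells with a median of 10929.5 UMIs and 7555 control cells with a median of 16336 UMIs were kept. Clusters were named "like" a cell type from marker genes, and 10 such classes held at least 50 cells in each library, among them 793 GA and 1697 control mesenchymal-like cells, 1362 and 1910 macrophage or monocyte-like cells, and 3765 and 1718 neutrophil-like cells. The 9 genes and 82 other genes of the pathway took no part in forming the clusters.

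Type I interferons bind a receptor made of IFNAR1 and IFNAR2, whose kinases phosphorylate STAT proteins, and a complex of STAT2, its STAT partner and the DNA-binding protein IRF9 (ISGF3) then turns on genes that carry an interferon-stimulated response element (ISRE). Type II interferon, or interferon gamma, uses a receptor whose ligand-binding chain is IFNGR1, and acts through gamma-activated sites (GAS), IRF1 being a well-known early product. IRF3 and IRF7 are switched on below nucleic acid sensors and drive the interferon genes themselves, IRF7 is in turn a product of the type I response, and IRF5 acts below Toll-like receptors in myeloid cells.

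The windows before the gene starts are shown because the members that were higher in mesenchymal-like cells of GA mice, Irf7, Irf9 and Stat2, are themselves known products or parts of the type I response. The core of the ISRE (GAAA and GAAA with any 2 bases between them, on either strand) and the palindromic GAS (TTCNNNGAA) were searched in the 250 bases before the start of each RefSeq gene (GRCm38.p6). No member held both. Of all 32851 windows 2.98% held the ISRE core and 7.02% the GAS. Among the 9 members, Stat2 held an ISRE core on the minus strand, beginning 222 bases before its start, and Irf1 and Ifnar2 each held a GAS, beginning 90 and 214 bases before their starts. The matches are in capitals in the sequences below, which read 5′ to 3′ along the gene's strand.
Stat2, chr10:128270251-128270310, plus strand: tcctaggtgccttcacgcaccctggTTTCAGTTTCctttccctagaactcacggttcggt
Irf1, chr11:53769899-53769957, plus strand: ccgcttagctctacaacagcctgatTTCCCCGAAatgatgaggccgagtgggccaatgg
Ifnar2, chr16:91372544-91372602, plus strand: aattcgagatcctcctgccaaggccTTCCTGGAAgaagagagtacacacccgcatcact
The Irf7 window held neither motif. Its part before the gene as GENCODE draws it is 193 bases long.
Irf7, chr7:141266482-141266674, minus strand: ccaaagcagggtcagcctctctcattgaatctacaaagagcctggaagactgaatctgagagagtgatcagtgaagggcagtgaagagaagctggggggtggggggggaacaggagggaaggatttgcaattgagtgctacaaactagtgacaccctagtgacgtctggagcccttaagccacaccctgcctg
A match is a description of the letters and not a site of binding, and a window without a match says nothing about factors bound elsewhere. Of the type I interferon targets in the list used below, 8 of the 14 with a window held the ISRE core. Of the type II targets 7 of the 12 with a window held it, so that it did not set the 2 lists apart. The GAS was held by 3 of the 14 and 4 of the 12.

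In the mouse genome (GRCm38, GENCODE vM21) the genes lie on 6 chromosomes. Ifnar2 (chr16:91372783-91405589) and Ifnar1 (chr16:91485238-91507441) lie on the plus strand of the same chromosome, and Irf7 (chr7:141262706-141266481, minus strand) shares its chromosome with Irf3 (chr7:44997648-45002848). Stat2 (chr10:128270559-128292849) shares one with Ifngr1 (chr10:19591949-19610229). Irf1 (chr11:53770014-53778374), Irf5 (chr6:29526625-29541871) and Irf9 (chr14:55603571-55610030) are the only members on theirs, and like the rest other than Irf7 they are on the plus strand.

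The type I receptor chains differed little between the conditions in the sums of the 3 classes with the most cells. Ifnar1, the chain that docks the kinase TYK2, had 32.4 CPM in GA and 31.6 in control mesenchymal-like cells, 72.8 and 75.1 in macrophage or monocyte-like cells, and 25.4 and 27.2 in neutrophil-like cells. The log2 ratio in the mesenchymal-like cells was 0.04 (95% interval from -0.06 to 0.13). Ifnar2, the chain that binds interferon most tightly, had 113 and 115 CPM in mesenchymal-like cells and 242 in macrophage or monocyte-like cells of each library. Its log2 ratios there were -0.03 (from -0.07 to 0.02) and 0.00 (from -0.04 to 0.05). Over the 10 classes the log2 ratio of Ifnar2 lay between -0.32 and 0.11. That of Ifnar1 lay between -0.77 and 0.38 over the 9 classes with at least 50 of its UMIs, and in plasmacytoid dendritic-like cells it was -0.58 (from -0.89 to -0.27).

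Both chains stood highest in plasmacytoid dendritic-like cells, the cell type known as a professional source of type I interferon, at 152 CPM in GA and 228 in control for Ifnar1 and 539 and 672 for Ifnar2. Ifnar1 stood lowest in osteoblast-like cells, at 7.35 CPM in GA and 7.22 in control, which makes a 20.7-fold range over the classes in GA and a 31.5-fold range in control. Ifnar2 was the more even of the pair, with a 6.84-fold range in GA and an 8.61-fold range in control and its lowest level in B-like cells (78.8 and 78.0 CPM). Neighbours in these orders often had overlapping intervals, 3 of 9 neighbouring pairs in GA and 5 of 9 in control for Ifnar1, and 4 and 6 of 9 for Ifnar2.

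Ifngr1 followed another order. T or NK-like cells had the most, 680 CPM in GA and 736 in control, followed by dendritic-like cells with 291 and 311. In macrophage or monocyte-like cells it had 215 CPM in GA and 178 in control, a log2 ratio of 0.27 (from 0.22 to 0.32). That ratio was 0.006 when the clusters of the class were weighted alike in both libraries. Within the class it was -0.12 (from -0.20 to -0.03) in monocyte-like and 0.03 (from -0.03 to 0.10) in macrophage-like clusters, which are described below. In mesenchymal-like cells Ifngr1 had 42.3 and 38.7 CPM, a log2 ratio of 0.13 (from 0.05 to 0.21). Neutrophil-like cells had 112 and 110 CPM. The genes most like Ifngr1 over the 20 class and library levels were Acoxl, Dok2 and Ptpn22 (Pearson r of log2(CPM + 1) 0.93, 0.89 and 0.89). Such r values describe 10 classes seen in the same 2 libraries, with 13454 genes compared, and carry no test.

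**Figure D1:**
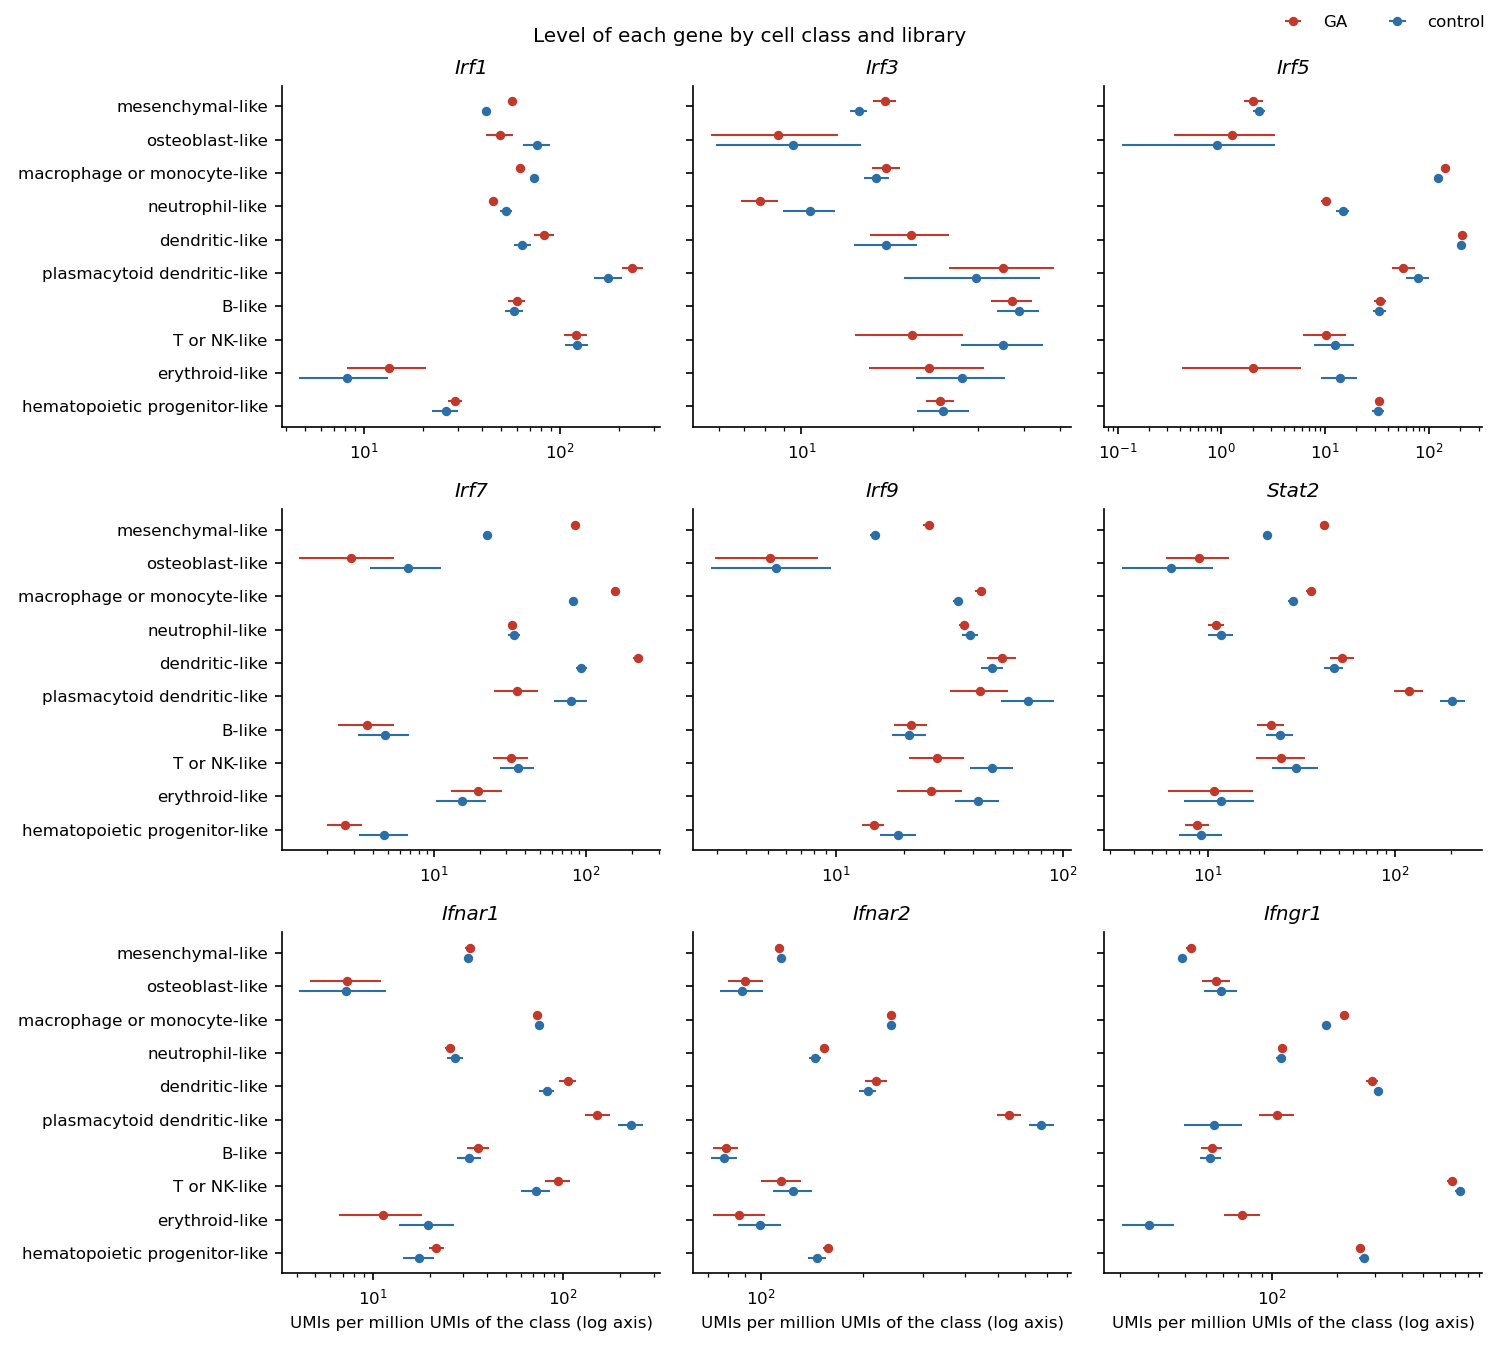
Level of each of the 9 genes in the 10 cell classes, in CPM on a log axis, with GA in red, control in blue and bars for the exact 95% Poisson interval of counting error. Irf7 stood apart between the libraries in the mesenchymal-like cells (85.0 against 22.4 CPM), whereas Ifnar2 lay at 113 and 115 CPM.

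Irf7 was the member that differed most between GA and control. In mesenchymal-like cells it had 85.0 CPM in GA (3760 UMIs) and 22.4 in control (2141 UMIs), 3.79-fold higher in GA with a log2 ratio of 1.92 (from 1.85 to 2.00). Of the 15562 genes with at least 50 UMIs in these cells, 99.4% had a lower ratio. Irf9, the DNA-binding part of ISGF3, had 25.6 CPM in GA and 14.8 in control, a log2 ratio of 0.78 (from 0.67 to 0.90), and Stat2 had 41.9 and 20.8, a log2 ratio of 1.01 (from 0.92 to 1.10). Irf1 had 56.5 and 41.9 CPM, a log2 ratio of 0.43 (from 0.36 to 0.51). Irf3, a constitutively made factor, had 16.8 and 14.3 CPM (log2 ratio 0.23, from 0.10 to 0.36), and Irf5, a gene of myeloid and B cells, had 2.03 and 2.30 CPM. In these cells 3 of the 9 members were at least 1.5-fold higher in GA and 0 at least 1.5-fold lower, while 6.68% and 8.39% of all genes with at least 50 UMIs were. Because the members were chosen with earlier results of these data known, these shares are a description and no test.

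The mesenchymal-like class was made of 4 clusters, and Irf7 was higher in GA in each of them. Irf7 had 90.9 CPM in GA and 19.7 in control in the cluster led by Tnc, Fbn1 and Fstl1, a log2 ratio of 2.21. In the cluster led by Sfrp2, Dcn and Col3a1 it had 121.5 and 43.9 CPM, in that led by Sfrp2, Gpx3 and Col1a1 21.0 and 8.48, and in that led by Mgp and Eln 19.1 and 12.2. The last of these had the smallest log2 ratio, 0.64 (from 0.11 to 1.14), with 56 GA cells and 39 Irf7 UMIs in them, and there it stood below those of Irf5 (1.09), Irf9 (1.01) and Stat2 (1.001). Stat2 had log2 ratios from 0.41 to 1.51, Irf9 from 0.36 to 1.01 and Irf1 from 0.35 to 0.80 over the 4 clusters, all with intervals above 0. Irf3 had an interval above 0 in 1 of the 4 and Ifnar1 in 0 of them. Ifnar2 had an interval above 0 in 2 and below 0 in 1, with log2 ratios from -0.23 to 0.34. Ifngr1 had an interval above 0 in 1 and below 0 in 1, with log2 ratios from -0.12 to 0.49.

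RNA of other cells was also higher in the mesenchymal-like cells of GA. The 9 neutrophil marker genes summed to 1779 CPM in GA and 205 in control, with 9 of 9 higher in GA and none at 0 UMIs, and 6 immune markers summed to 70.7 and 30.9 CPM, with 6 of 6 higher. The 5 macrophage markers summed to 224 CPM in GA and 384 in control, with 1 of 5 higher in GA. When mesenchymal-like cells with any UMI of the leukocyte gene Ptprc were left out, the same count of 3 members was at least 1.5-fold higher. The marker sums of the cells left were not computed, so that this cannot tell what part RNA of other cells had in the levels. That part was not tested.

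**Figure D2:**
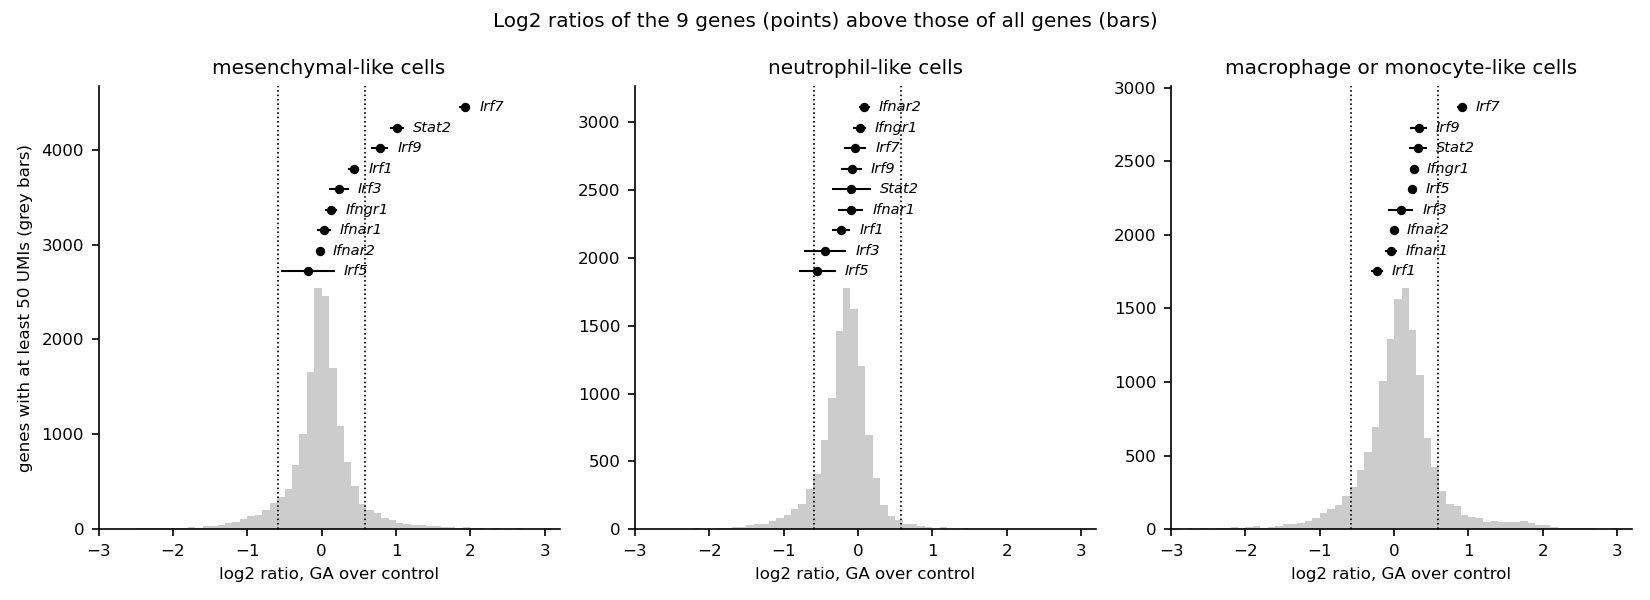
Log2 ratio of GA over control for each of the 9 genes in mesenchymal-like, macrophage or monocyte-like and neutrophil-like cells, with exact 95% intervals of counting error, over a grey histogram of the ratios of all genes with at least 50 UMIs and dotted lines at 1.5-fold. Irf7, Stat2 and Irf9 lay past 1.5-fold in mesenchymal-like cells, Irf7 in macrophage or monocyte-like cells, and none of the 9 in neutrophil-like cells.

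The cells of the mesenchymal-like class were not alike in Irf7. Each cell was thinned to 10000 UMIs so that depth would not set the shares, which left out 4 GA and 3 control cells. At least 1 Irf7 UMI was found in 37.4% of 789 GA cells (exact 95% binomial interval from 34.0 to 40.9) and in 14.5% of 1694 control cells (from 12.9 to 16.3), and at least 3 in 9.76% and 1.53%. Unthinned, the shares with a UMI were 67.0% and 40.2%. In B-like cells, where Irf7 was near its lowest level, 2.56% of 195 GA and 2.82% of 177 control cells thinned alike had a UMI. The other 390 GA and 401 control B-like cells were too shallow to thin and were left out. The same shares were 33.3% in GA and 17.8% in control for Stat2, 22.6% and 13.9% for Irf9, and 60.8% and 65.3% for Ifnar2.

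Cells with more Irf7 also held more RNA of the type I interferon targets, the antiviral genes such as Isg15, Ifit1 and Mx1 that ISGF3 turns on. The cells were thinned again for this by another random draw, so that the numbers of cells by Irf7 count differ somewhat from the shares above. GA cells with no Irf7 UMI held a mean of 8.58 target UMIs per thinned cell (505 cells), those with 1 or 2 held 17.4 (208 cells) and those with 3 or more 27.8 (76 cells). In control the means were 4.53 (1436 cells), 10.2 (223 cells) and 18.2 (35 cells). The GA mean was thus the higher in each of these 3 bins, also where no Irf7 UMI was left after thinning. The bins with Irf7 UMIs did not hold the same counts in both libraries. In the thinning of the paragraph above the highest count was 17 in GA and 6 in control. The bin with no Irf7 UMI sets equal thinned counts side by side, but not equal Irf7 in the whole cells. Unthinned, 67.0% of GA and 40.2% of control cells held an Irf7 UMI, so that some cells of this bin held Irf7. Whether target RNA differed at equal Irf7 was not tested. Stat2 was found in 23.8%, 35.1% and 42.1% of these GA cells and in 18.0%, 24.2% and 22.9% of the control cells. Cells of 1 library are not replicates, and these values describe the libraries.

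**Figure D3:**
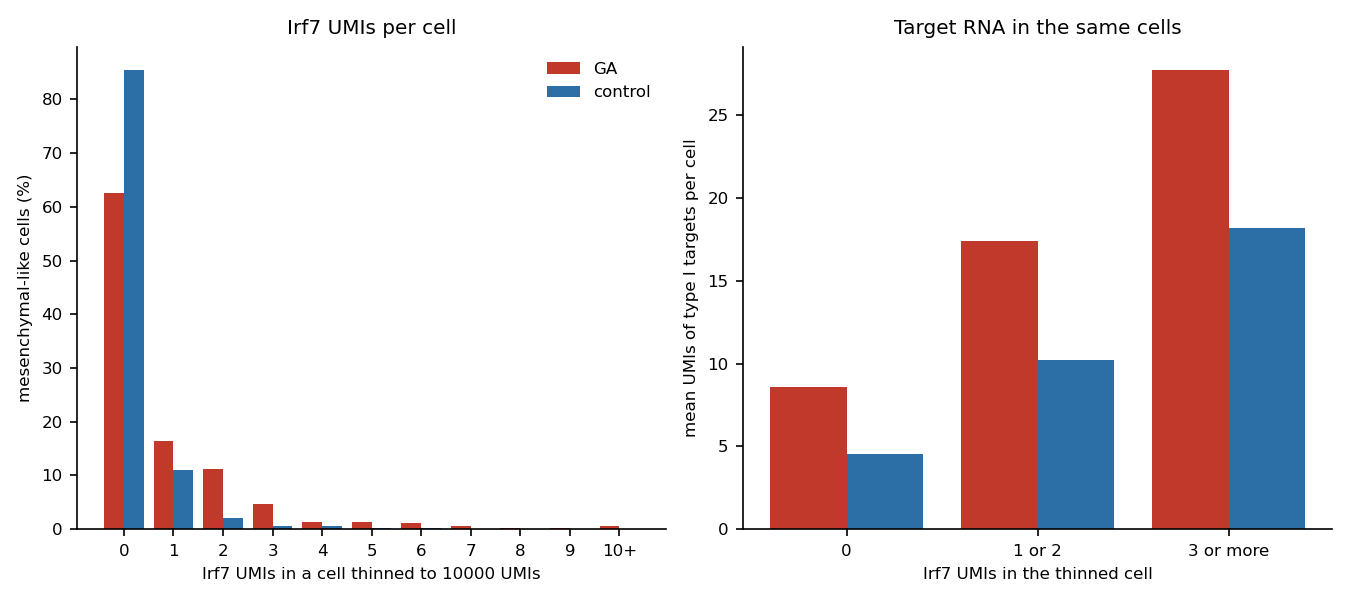
Left, share of mesenchymal-like cells by number of Irf7 UMIs after thinning each cell to 10000 UMIs, for GA (789 cells) and control (1694 cells). Right, mean UMIs of type I interferon targets per thinned cell by bin of Irf7 count (0, 1 or 2, 3 or more), which went from 8.58 to 27.8 in GA and from 4.53 to 18.2 in control. The left and right panels rest on separate random draws of the thinning.

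In macrophage or monocyte-like cells Irf7 had 154 CPM in GA and 82.3 in control, a log2 ratio of 0.91 (from 0.84 to 0.97). It was the only member at least 1.5-fold higher there, against 10.3% of 13168 genes, and 0 members were at least 1.5-fold lower, against 7.97%. Irf5, which is most abundant in myeloid cells, had 143 and 121 CPM, a log2 ratio of 0.25 (from 0.19 to 0.31). Its ratio was 0.04 when the clusters of the class were weighted alike in both libraries. Within the class it was -0.11 (from -0.21 to -0.003) in monocyte-like and 0.02 (from -0.06 to 0.10) in macrophage-like clusters. Irf9 and Stat2 each had a log2 ratio of 0.33, at 43.3 and 34.5 CPM and at 35.6 and 28.4 CPM. Irf1 went the other way, with 62.5 CPM in GA and 73.4 in control, a log2 ratio of -0.23 (from -0.32 to -0.15).

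This class joined cells of opposite direction. Of its 4 clusters, 1 was monocyte-like by its markers (led by F13a1, Ccr2 and Chil3, with 502 GA and 378 control cells), 2 were macrophage-like (732 and 1363 cells) and 1 was given neither name (led by Vcam1, Cd5l and C1qa, with 128 and 169 cells). The cluster without a name was shallow, with a median of 2375 UMIs per cell against 16069.5 to 24083 in the others. The macrophage markers C1qa, C1qc and Mrc1 were among its leading genes. Irf7 had 37.8 CPM in GA and 91.5 in control in the monocyte-like cells, a log2 ratio of -1.28 (from -1.46 to -1.09). In the macrophage-like cells it had 242 CPM in GA and 82.0 in control, a log2 ratio of 1.56 (from 1.49 to 1.63). The summed control levels of the 2 kinds of cell thus lay close together, and the summed GA levels lay apart on either side of them. In the cluster given neither name, Irf7 had 61.1 and 36.4 CPM, a log2 ratio of 0.75 (from 0.10 to 1.41), and Stat2 a log2 ratio of -0.26 (from -1.03 to 0.49).

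Stat2 lay on the same side as Irf7 in both. It had 20.3 CPM in GA and 48.4 in control in the monocyte-like cells, a log2 ratio of -1.26 (from -1.51 to -1.002), and 46.7 and 24.8 CPM in the macrophage-like cells, a log2 ratio of 0.91 (from 0.77 to 1.06). Irf9 had log2 ratios of -0.33 (from -0.53 to -0.13) and 0.43 (from 0.29 to 0.57). Irf1 was lower in GA in the monocyte-like cells, with 45.0 CPM against 76.5, and alike in the macrophage-like cells, with 69.9 against 71.8. Irf5, the receptor chains and Irf3 differed less in either, with log2 ratios between -0.24 and 0.13. Among them Ifnar1 lay on opposite sides of 0, at -0.24 (from -0.42 to -0.06) in the monocyte-like and 0.13 (from 0.03 to 0.22) in the macrophage-like cells. Ifnar2 had -0.21 (from -0.30 to -0.12) and -0.04 (from -0.09 to 0.02). In the monocyte-like cells 0 members were at least 1.5-fold higher and 3, Irf1, Irf7 and Stat2, at least 1.5-fold lower, against 6.45% and 7.89% of 10241 genes. In the macrophage-like cells 2, Irf7 and Stat2, were at least 1.5-fold higher and 0 lower, against 6.14% and 3.5% of 12016 genes.

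**Figure D4:**
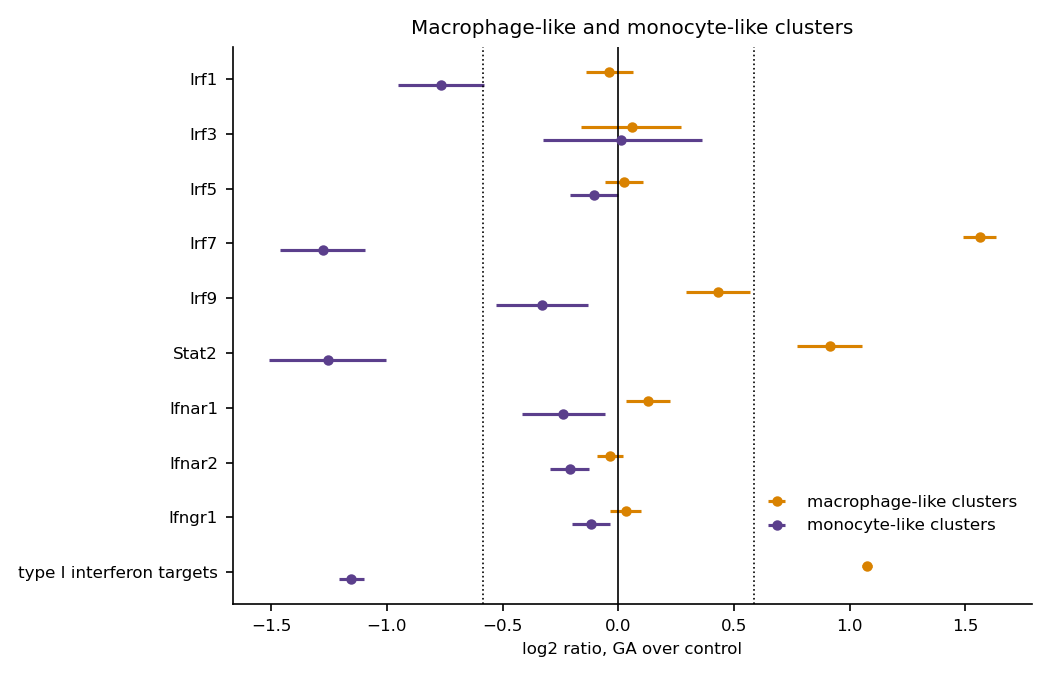
Log2 ratio of GA over control for the 9 genes and for the sum of the type I interferon targets in macrophage-like (orange) and monocyte-like (purple) clusters, with exact 95% intervals of counting error and dotted lines at 1.5-fold. Irf7, Stat2 and the summed targets lay on opposite sides of 0 in the 2 kinds of cell, and Irf3, Irf5 and the receptor chains lay within 1.5-fold in both.

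The targets went with the factors. Summed type I interferon targets had 447 CPM in GA and 995 in control in the monocyte-like cells and 1871 and 888 in the macrophage-like cells. All 16 type I targets with at least 50 UMIs were at least 1.5-fold lower in GA in the monocyte-like cells, with a median log2 ratio of -1.24 against 0.01 over all genes, and 17 of 18 were at least 1.5-fold higher in the macrophage-like cells, with a median of 1.44 against 0.06. Rsad2, the antiviral enzyme viperin, had the lowest log2 ratio of them in the monocyte-like cells, -2.33, and Ifit3b, a binder of foreign RNA, the highest in the macrophage-like cells, 2.23.

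The monocyte-like cells were not uniform at a finer clustering (Leiden resolution 2). In 3 monocyte-like clusters there Irf7 had 41.9 CPM in GA and 110 in control (led by Ccr2, F13a1 and Ms4a6c), 14.2 and 39.0 (led by F13a1, Nrg1 and Ccr2), and 135 and 116 (led by Vcan, Cxcl2 and Cxcl3). Irf7 was thus lower in GA in 2 of the 3, with log2 ratios of -1.40 and -1.45, and the interval of the other, from 0.01 to 0.42, lay just above 0. Stat2 had log2 ratios of -1.80, 0.46 (from -0.28 to 1.28) and -0.37 (from -0.80 to 0.05) in the same order of clusters. It was thus lower in GA beyond counting error in the first alone. In that order the clusters held 227 GA and 172 control, 155 and 60, and 167 and 200 cells. The summed levels of the monocyte-like cells also move with these shares. A ratio with these finer clusters weighted alike in both libraries was not computed. In the 3 macrophage-like clusters at that setting the log2 ratios of Irf7 were 1.32, 1.58 and 2.03, and those of Stat2 were 0.60, 1.03 and 1.56. Over 9 alternative filters and clusterings, chosen for this split after it was seen, the Irf7 log2 ratio stayed between -1.59 and -0.88 in monocyte-like and between 1.501 and 1.55 in macrophage-like cells. Neutrophil markers summed to 4496 CPM in GA and 772 in control in the monocyte-like cells and to 2074 and 268 in the macrophage-like cells, so that they were higher in GA on both sides of the split. Macrophage markers summed to 12777 CPM in GA and 17882 in control in the monocyte-like cells, with 0 of 5 higher in GA, and to 37177 and 49116 in the macrophage-like cells, with 3 of 5 higher. The part of either list in the levels was not tested.

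Neutrophil-like cells showed little of this. Irf7 had 32.6 CPM in GA and 33.5 in control, a log2 ratio of -0.04 (from -0.19 to 0.11), Irf9 36.6 and 38.9, and Stat2 11.1 and 11.8. Irf5 had 10.1 and 14.7 CPM, a log2 ratio of -0.54 (from -0.79 to -0.30), and Irf3 7.73 and 10.5, a log2 ratio of -0.44 (from -0.73 to -0.15). No member was at least 1.5-fold higher (1.63% of 10716 genes) or lower (10.3%), although Irf5 was close to that line and the median gene of the class stood at -0.15. Mature neutrophil-like clusters had more Irf7 than immature ones in both libraries, 50.2 CPM against 22.2 in GA and 56.7 against 20.8 in control. Within mature cells Irf5 had 23.9 CPM in GA and 37.7 in control (log2 ratio -0.66), the 1 member of 9 at least 1.5-fold lower there, against 12.2% of genes, with 0 higher against 2.87%. In immature cells 0 of 9 members were past 1.5-fold, against 1.68% of genes higher and 6.93% lower. In all, 730 GA and 510 control cells lay in clusters without a name. Most were in a cluster led by Acod1, G0s2 and Il1b (658 GA and 367 control cells). Its highest naming score was for neutrophil markers, and its cells are in none of the neutrophil-like values.

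Dendritic-like cells had the highest Irf7 of all classes in both libraries, 219 CPM in GA (173 cells) and 93.0 in control (328 cells), a log2 ratio of 1.24 (from 1.08 to 1.40). Irf7 was the 1 member of 9 at least 1.5-fold higher there (6.36% of 9232 genes), and 0 were lower (5.94%). Irf5 was also highest in this class, at 205 CPM in GA and 204 in control, without a difference between them beyond counting error (log2 ratio 0.01, from -0.12 to 0.15). Irf9 and Stat2 had log2 ratios of 0.14 and 0.15 with intervals that held 0. The class stood close to macrophages in its markers, with a naming score of 3.67 for dendritic and 3.64 for macrophage or monocyte markers (mean log2 difference from the other clusters), and GA macrophage-like clusters, at 242 CPM, had as much Irf7. Macrophage markers summed to 12634 CPM in GA and 9021 in control in the dendritic-like cells, with 5 of 5 higher in GA, and neutrophil markers to 2765 and 733, with 9 of 9 higher. Their part was not tested.

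In plasmacytoid dendritic-like cells, 70 in GA and 71 in control, Irf7, Stat2 and Irf9 were lower in GA. Irf7 had 35.1 CPM (39 UMIs) in GA and 80.0 (65 UMIs) in control, a log2 ratio of -1.19 (from -1.80 to -0.59), and 27 of the 39 GA UMIs came from 5 cells. Without the 5 cells of each library with the most Irf7 it had 11.9 and 53.0 CPM, a log2 ratio of -2.16 (from -3.23 to -1.19). At 10000 UMIs per cell 16.7% of 60 GA cells (from 8.29 to 28.5) and 44% of 50 control cells (from 29.99 to 58.7) had an Irf7 UMI. Stat2 had 119 and 203 CPM, a log2 ratio of -0.77 (from -1.11 to -0.43), and Irf9 43.2 and 70.2, a log2 ratio of -0.70 (from -1.28 to -0.12), whose interval held 0 without its 5 highest cells per library (from -1.35 to 0.04). These 3 were at least 1.5-fold lower, against 5.91% of 5840 genes, and 1, Ifngr1 at 105 against 54.2 CPM, was at least 1.5-fold higher, against 12.1%. Of the other factors, Irf1 (233 and 176 CPM) and Irf3 (35.1 and 29.6) were higher in GA and Irf5 (56.7 and 77.6) was lower, all within 1.5-fold. Neutrophil markers summed to 1905 CPM in GA and 175 in control in these cells, and their part was not tested.

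The number of members past 1.5-fold varied among the other classes. In T or NK-like cells Irf3 (19.9 and 35.1 CPM) and Irf9 (27.9 and 48.7 CPM) were at least 1.5-fold lower in GA, 2 of 8 members with at least 50 UMIs against 5.82% of genes, and 0 were higher against 2.64%. In erythroid-like cells Irf9 and Ifnar1 were lower, 2 of 6 against 9.93%, although the interval of Ifnar1 held 0 (from -1.69 to 0.09), as did that of Irf9 without its 5 highest cells per library (from -1.53 to 0.07). Ifngr1 was higher there, 73.1 against 27.2 CPM, 1 of 6 against 5.51%, although 76 of its 109 GA UMIs lay in 5 cells. Mesenchymal markers summed to 245 CPM in GA and 6288 in control in the erythroid-like cells, with 0 of 5 higher in GA, and their part was not tested. Hematopoietic progenitor-like cells had little Irf7, 2.62 CPM in GA and 4.74 in control, and it was the 1 of 9 members at least 1.5-fold lower there (7% of genes), with 0 higher (2.88%). That ratio rested on few cells, since 5 control cells held 16 of the 31 control UMIs, and without the 5 highest cells of each library it was -0.14 (from -1.01 to 0.80), at 2.14 and 2.36 CPM. At 10000 UMIs per cell 3.94% of GA and 3.72% of control progenitor-like cells had an Irf7 UMI. Osteoblast-like cells had enough UMIs for 3 members, of which Irf1 was lower, with 49.2 CPM against 75.8 (6.48% of genes), and 0 were higher (8.76%). The summed type I targets had 35.5 CPM in GA and 162 in control in osteoblast-like cells, a log2 ratio of -2.19 (from -2.51 to -1.88), and the 3 of them with at least 50 UMIs were all at least 1.5-fold lower. That class had 78 GA and 51 control cells, and whether a few cells carried the sum was not tested. All 15 control Irf7 UMIs of the class lay in 5 cells. In B-like cells no member was past 1.5-fold in either direction, where 2.26% and 2.25% of genes were. Over all kept cells together Irf7 was the only member past 1.5-fold, with 68.1 CPM in GA and 38.1 in control (9.85% of genes higher and 21% lower), and that sum also moves with the shares of the classes.

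The order of the classes differed between members. Irf1 stood highest in plasmacytoid dendritic-like cells, 233 CPM in GA and 176 in control, then in T or NK-like cells with 120 and 121, and lowest in erythroid-like cells with 13.4 and 8.20. Stat2 was also highest in plasmacytoid dendritic-like cells and its profile was close to that of Ifnar1 (r = 0.90 over the 20 levels). Irf5 had the widest range in GA, 161-fold between dendritic-like and osteoblast-like cells, the latter with 4 UMIs. Irf3 had the narrowest, 4.79-fold in GA and 4.07-fold in control, from 37.1 and 38.6 CPM in B-like cells, and 8 of 9 neighbouring classes in GA and 7 of 9 in control had overlapping intervals. Irf7 in mesenchymal-like cells ranked 3 of 10 in GA and 6 of 10 in control.

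The genes with levels most like those of a member included known interferon genes for some of them. For Irf7 they were Slfn5 (r = 0.94), Usp18, the protease that removes ISG15 (0.94), and Tapbp, a loader of MHC class I (0.87). For Irf9 they were Adar, an editor of double-stranded RNA (0.93), Trpv2 (0.93) and Ago2 (0.91), and for Irf5 the costimulator gene Cd86 (0.95), the inhibitory Fc receptor gene Fcgr2b (0.94) and Foxn2 (0.93). Stat2 was closest to Cfap45 (0.93), Dtx2 (0.90) and Kif9 (0.88), and Ifnar1 to H2-T23 (0.95), Erbin (0.93) and Slfn8 (0.93). Ifnar2 was closest to Eepd1 (0.95), Stx7 (0.91) and Mvd (0.91), Irf1 to Sik1 (0.92), Prdm2 (0.91) and Plpp6 (0.91), and Irf3 to Arglu1, Eefsec and Ddx42 (0.97, 0.97 and 0.96).

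Across clusters, the GA to control ratios of Irf7, Stat2, Irf1 and Irf9 had higher correlations with that of the summed type I targets than those of Irf3, Irf5 and the receptor chains. Over the clusters with at least 50 UMIs of the member, Pearson's r of the log2 ratios was 0.88 for Irf7 (21 clusters), 0.79 for Stat2 (20), 0.70 for Irf1 (24) and 0.67 for Irf9 (22). It was 0.33 for Ifnar1 (25), 0.30 for Ifnar2 (26), 0.30 for Irf3 (19), 0.26 for Irf5 (17) and 0.01 for Ifngr1 (26). Spearman's rho was 0.84 for Irf7, 0.61 for Stat2, Irf1 and Irf9, and at most 0.41 (Ifnar2) for the others. The sign of the ratio set the members less apart. It matched that of the targets in 16 of 21 clusters for Irf7, 17 of 22 for Irf9, 17 of 24 for Irf1 and 12 of 20 for Stat2. It matched in 12 of 17 for Irf5, 13 of 19 for Irf3, 16 of 25 for Ifnar1, 15 of 26 for Ifnar2 and 13 of 26 for Ifngr1. All points share the same 2 libraries and their depth and composition, and the differences between the r values were not tested.

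**Figure D5:**
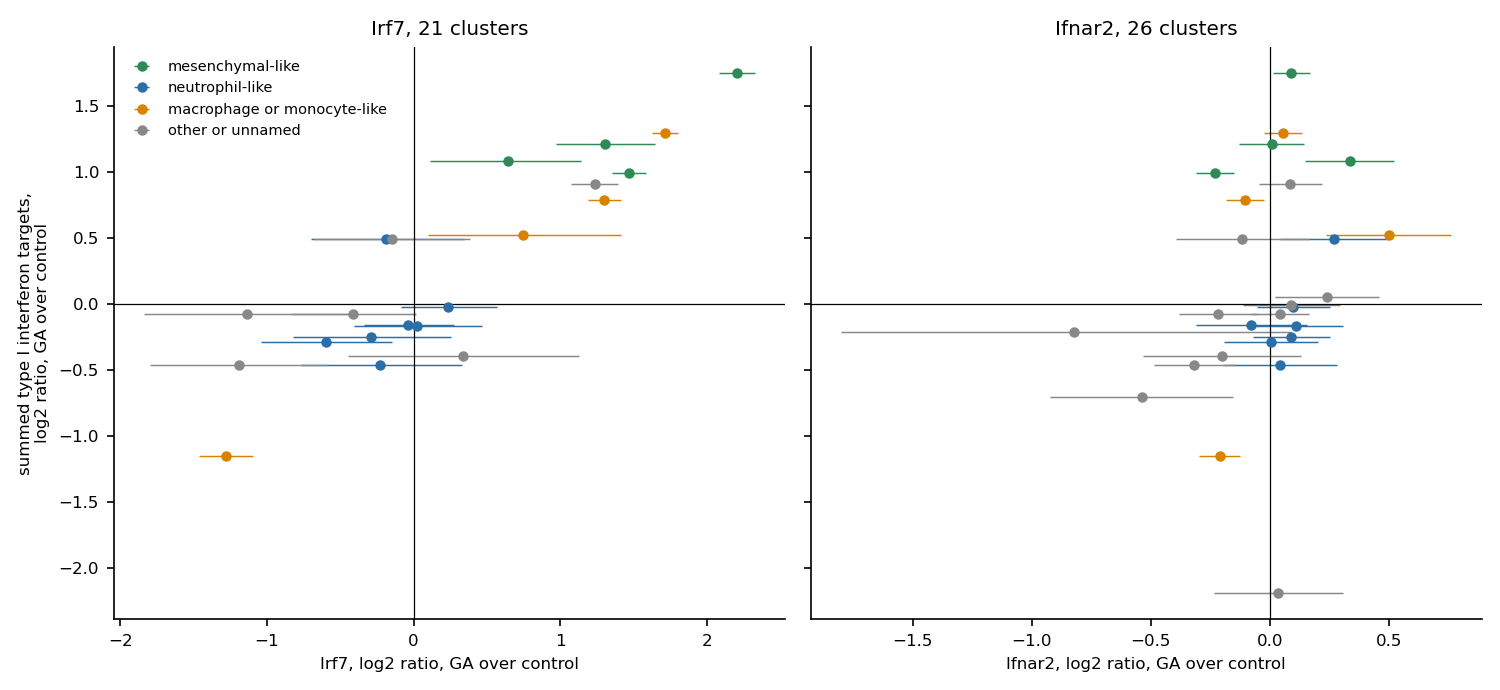
Log2 ratio of GA over control of a member (x axis) against that of the summed type I interferon targets (y axis), with a point for each cluster with at least 50 UMIs of the member. The points of Irf7 (left) lay closer to a line (r = 0.88 over 21 clusters) than those of Ifnar2 (right, r = 0.30 over 26 clusters).

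The other genes of the pathway showed where the members' differences were shared. In mesenchymal-like cells 18 of 18 type I targets with at least 50 UMIs were at least 1.5-fold higher in GA, with a median log2 ratio of 1.54 against -0.00 for all genes. They ran from Ifi204, a DNA sensor of the PYHIN family (94.5 and 49.1 CPM, 0.94), to Oas3, an oligoadenylate synthetase (3.55 and 0.796 CPM, 2.16). Of the type II targets 8 of 15 were at least 1.5-fold higher and 0 lower, with a median of 0.61, from Tap2, part of the peptide transporter (0.04), to Iigp1, an immunity-related GTPase (68.4 and 27.8 CPM, 1.30). Of the feedback inhibitors 2 of 8 were higher, Usp18 most (31.4 and 9.32 CPM, 1.75), whereas Ptpn2, a phosphatase of the pathway, stood lowest at -0.34. Sensors and adaptors had 3 of 11 higher, from the kinase gene Tbk1 (-0.03) to Dhx58 (10.7 and 4.09 CPM, 1.39), which encodes the RNA sensor LGP2. Of the other IRF, STAT and kinase genes 3 of 13 were higher and 0 lower, from Stat5a (-0.50) to Stat4 (1.74 and 0.660 CPM, 1.40), and of the other receptor chains 0 of 2, with Il10rb at 0.27. The interferon genes themselves were almost unseen, with 13 UMIs over 10 genes in both libraries together, too few for a ratio.

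In macrophage or monocyte-like cells 11 of 18 type I targets were at least 1.5-fold higher and 0 lower (median 0.82 against 0.09 for all genes), from Bst2 (0.04), which tethers virus particles, to Ifit3b (8.41 and 3.15 CPM, 1.42). Of the type II targets 3 of 16 were higher, Cxcl9 most (1.24), and 1 was lower, Ciita (-0.94), the activator of MHC class II genes. The Cxcl9 ratio rested mostly on 1 cluster, the one led by Vcam1, Cd5l and C1qa, which held 782 of the 935 GA UMIs of Cxcl9 against 3 of the 536 in control, and where the summed type II targets had 2227 and 535 CPM. In the summed macrophage-like clusters Cxcl9 had the lowest log2 ratio of the type II targets, -0.83, but the 2 clusters differed in direction. The cluster led by C1qa, C1qb and Apoe had 105 GA and 524 control UMIs of Cxcl9, a log2 ratio of -1.24 (from -1.56 to -0.94). The cluster led by Cd36, Arg1 and Pf4 had 45 and 5 UMIs, a log2 ratio of 4.10 (from 2.77 to 5.79). Sensors had 2 of 13 higher, from Tlr7 (-0.40) to Dhx58 (0.62), feedback inhibitors 1 of 8, from Socs3 (-0.45) to Usp18 (0.69), and the other IRF, STAT and kinase genes 0 of 13, from Jak2 (-0.20) to Tyk2 (0.41). The 10 interferon genes had 23 UMIs.

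In neutrophil-like cells 0 of 17 type I targets were past 1.5-fold in either direction (median -0.15, as for all genes), from Rsad2 (50.7 and 73.4 CPM, -0.53) to Oas2 (22.7 and 19.7 CPM, 0.21). Their sum had 1044 CPM in GA and 1234 in control in mature cells, with 3 of 17 at least 1.5-fold lower, Ifit2 most (-0.80), and 151 and 140 in immature cells, with 1 of 13 higher, Oas2 (0.70). Of the type II targets Gbp2, a guanylate-binding protein gene, was higher in GA (10.3 and 4.71 CPM, 1.13), and 2 of 11 were lower, Cxcl10 most (8.76 and 31.0 CPM, -1.82), a chemokine of T cells. Of the sensors 0 of 10 were higher and 2 lower, from Cgas (-0.66) to Dhx58 (0.37), and the 8 feedback inhibitors lay within 1.5-fold, from Socs1 (-0.48) to Socs3 (0.32). Of the other IRF, STAT and kinase genes 1 of 12 was higher, Jak3 (0.93), and 1 lower. The interferon genes had 1 UMI.

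In dendritic-like cells 16 of 18 type I targets were at least 1.5-fold higher in GA (median 0.94 against 0.02 for all genes). The class thus had higher Irf7 and targets with Irf9 and Stat2 at log2 ratios of 0.14 and 0.15. In plasmacytoid dendritic-like cells only 1 of these targets, Bst2, reached 50 UMIs, at a log2 ratio of -0.46.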

How the data were processed

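The deposited files hold raw UMI counts per gene and cell, which the authors made with Cell Ranger against mm10. The matrix headers name version 7.0.1 and the study's methods another version and 2 different reagent chemistries. The 9 genes, the pathway lists and the thresholds were chosen with earlier results of these data known. Of 18040 barcodes 17129 lay within the stated limits (500 to 140000 UMIs, 200 to 9500 genes, at most 15% mitochondrial counts), and the study states 17133 cells. Scrublet called 0 and 32 doublets, which is too few to be a working call, so the cells with the highest scores were removed at 0.8% per 1000 barcodes, leaving 15931. The libraries shared 23 barcodes. Pearson residuals of 2000 variable genes, 50 principal components, Harmony and Leiden clustering at resolution 1 (scanpy 1.11.5, leidenalg 0.10.2, Python 3.11.15, SciPy 1.17.1) gave clusters, named from marker lists where at least 3 markers were high. The names were rebuilt here and may differ from the study's.

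UMIs were summed per class and library, and levels were divided by the class total. Intervals were exact (Poisson for levels, conditional binomial for ratios, Clopper-Pearson for shares) at 95%. Past 1.5-fold counted as higher or lower. The interval code was tested on simulated data. Named were all 9 members, the highest and lowest gene of each pathway list in the 3 main classes, and the 3 genes most like each member among genes with at least 500 UMIs. Of 86 listed pathway genes 82 were in the matrices. Some genes that meet the rule are not reported here. Alternatives covered filters, doublets, clustering, naming, thinning to 2000 UMIs, weights, the UMI minimum per gene and shared barcodes. Promoter sequences are from RefSeq and gene positions from GENCODE.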

Additional observations from a re-analysis of the deposited data

Results flagged for a closer look

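The GA to control ratio of 3 members pointed in opposite directions in different kinds of cell. Irf7 had log2 ratios of 1.92 in mesenchymal-like, 1.24 in dendritic-like and 0.91 in macrophage or monocyte-like cells, and of -1.19 in plasmacytoid dendritic-like and -0.86 in hematopoietic progenitor-like cells. Within the macrophage or monocyte-like class it was 1.56 in the macrophage-like and -1.28 in the monocyte-like clusters. Stat2 had log2 ratios of 1.01 in mesenchymal-like and 0.91 in macrophage-like clusters, against -0.77 in plasmacytoid dendritic-like cells and -1.26 in the monocyte-like cluster. Irf9 had 0.78 in mesenchymal-like cells, against -0.80 in T or NK-like, -0.70 in plasmacytoid dendritic-like and -0.68 in erythroid-like cells. Each had an interval of counting error that lay wholly on its side of 0. Without the 5 cells of each library with the most UMIs of the gene, the log2 ratio of Irf7 was -0.14 (from -1.01 to 0.80) in the progenitor-like cells, and the intervals of Irf9 held 0 in the plasmacytoid dendritic-like (from -1.35 to 0.04) and erythroid-like cells (from -1.53 to 0.07). With 1 library per condition the difference between the kinds of cell was not tested.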

How the results depend on the processing

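Of 104 counts of members past 1.5-fold under the alternatives, 101 were within 1.5 times of the reported count, among them 4 instead of 3 higher in mesenchymal-like cells, with Irf1 added, when clusters were weighted alike in both libraries. The other 3 were in neutrophil-like cells, where 1 member, Irf5, was at least 1.5-fold lower instead of 0 with at most 10% mitochondrial counts, with cells thinned to 2000 UMIs, and with clusters weighted alike in both libraries. Of the single log2 ratios 453 stayed within their counting interval, 81 moved beyond it, and 0 that were past 1.5-fold changed sign. Both tallies include the setting without the UMI minimum per gene, which could not change a value. All 9 members had at least 50 UMIs in each of the 3 main classes. Over 18 alternatives in mesenchymal-like cells Irf7 lay between 1.67 and 1.93, Stat2 between 0.90 and 1.29 and Irf9 between 0.60 and 0.84. Irf7 lay between 0.77 and 1.22 over 17 in macrophage or monocyte-like cells, and Irf5 between -0.73 and -0.28 in neutrophil-like cells. The cause of these shifts was not tested. No paired analysis was possible because each condition has 1 library. Depth limits the small classes most: 39 and 65 Irf7 UMIs carry the plasmacytoid dendritic-like ratio. Leaving out the 5 cells with the most UMIs in the smaller classes was chosen after seeing the data; it moved Irf7 to -2.16 in those cells and to -0.14 in hematopoietic progenitor-like cells.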
